A study of Mus musculus with 6 samples.

Results

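B cell lymphoma 6 (BCL6) and the genes around it were read in resting bone-marrow-derived macrophages (BMDMs) with and without CITED2. The set comprised 6 genes, namely *Bcl6*, its paralog *Bcl6b*, the corepressor genes *Bcor*, *Ncor1* and *Hdac3*, and *Prdm1*, which were chosen by name among the 22248 genes listed. All 6 were listed, and 5 of them, all but *Bcl6b*, averaged an FPKM of 1 or more and were tested. BMDMs are macrophages matured in culture from marrow cells by macrophage colony-stimulating factor. The 3 control libraries came from Lyz2cre mice, and the 3 CITED2-deficient libraries came from Lyz2cre:CITED2Fl/Fl mice. All mice were C57BL/6, and the labels give an age of 10 weeks, while the methods of the study give a younger age for BMDM donors. Every mouse carried Cre recombinase in the *Lyz2* locus, which is active in myeloid cells and not in macrophages alone, and the controls had no floxed *Cited2*. The cells had received no stimulus, and the labels do not say whether each library was 1 mouse, so p-values here measure the spread between libraries.

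BCL6 silences genes: its zinc fingers hold it on DNA, and its POZ domain docks the corepressors NCOR1 and BCOR. NCOR1 carries the histone deacetylase HDAC3, whose activity it switches on, while BCOR belongs to a variant Polycomb complex that marks histone H2A with ubiquitin. BCL6B shares the POZ and zinc finger layout of BCL6. *Prdm1* encodes BLIMP-1, a repressor that drives plasma cell differentiation, and both repressors are known to antagonize each other in B cells. In macrophages BCL6 is known to restrain inflammatory genes near NFkB sites, and in T cells STAT3 and STAT5 are known to act on *Bcl6* through shared DNA sites.

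Since STAT and BCL6 proteins read similar DNA words, the promoter windows of the genes were searched for them. RefSeq windows (GRCm38.p6) of 250 bases before to 30 bases after a transcript start were held for *Bcl6*, *Bcor*, *Ncor1* and *Prdm1*, 7 windows in all. The letters searched on both strands were TTCNNNGAA (the palindrome of STAT dimers), TTCCTNGAA (the core of the BCL6 site, each match of which is also a match of the STAT word) and GTGAAAG (part of the BLIMP-1 site). The STAT word occurred in 7.83% of 32851 windows of this length, the BCL6 word in 1.48% and the BLIMP-1 word in 3.96%. The windows below run 5′ to 3′ on the minus strand, with matches in capitals. On that strand the *Bcl6* start at the end of the gene, by coordinate, is its outermost 5′ start. They are shown because *Bcl6* and *Prdm1* are the genes of the set that rose and *Ncor1* holds the other BCL6 word.
Bcl6, start inside the gene, chr16:23981254-23981533: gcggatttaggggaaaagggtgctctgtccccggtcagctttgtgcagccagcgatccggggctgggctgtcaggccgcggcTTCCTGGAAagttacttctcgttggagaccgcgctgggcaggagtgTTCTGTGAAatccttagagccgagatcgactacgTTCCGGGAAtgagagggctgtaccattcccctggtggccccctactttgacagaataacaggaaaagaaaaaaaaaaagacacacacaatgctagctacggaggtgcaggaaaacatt
Bcl6, start at the end of the gene, chr16:23988823-23989102: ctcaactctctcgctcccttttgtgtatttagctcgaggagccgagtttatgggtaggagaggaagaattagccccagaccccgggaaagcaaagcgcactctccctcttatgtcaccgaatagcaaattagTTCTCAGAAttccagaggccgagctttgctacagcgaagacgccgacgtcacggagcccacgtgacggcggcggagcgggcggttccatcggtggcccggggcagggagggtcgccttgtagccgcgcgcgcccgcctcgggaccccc
Ncor1, start inside the gene, chr11:62438486-62438765: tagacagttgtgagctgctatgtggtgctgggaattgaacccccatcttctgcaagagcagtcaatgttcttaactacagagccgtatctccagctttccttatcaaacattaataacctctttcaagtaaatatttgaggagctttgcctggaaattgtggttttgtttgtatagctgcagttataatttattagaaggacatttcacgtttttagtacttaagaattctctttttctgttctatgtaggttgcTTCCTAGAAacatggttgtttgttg
Prdm1, start inside the gene, chr10:44458719-44458998: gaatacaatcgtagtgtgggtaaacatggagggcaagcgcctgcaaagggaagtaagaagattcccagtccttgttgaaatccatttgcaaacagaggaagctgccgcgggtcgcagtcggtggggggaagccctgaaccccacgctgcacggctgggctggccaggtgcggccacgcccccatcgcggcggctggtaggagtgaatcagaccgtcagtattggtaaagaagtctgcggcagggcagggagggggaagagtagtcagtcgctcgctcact
The inner *Bcl6* window held the STAT word at 3 places, which start 168, 122 and 88 bases before the transcript start, and the first of these is also the BCL6 word. Only 10 of the 32851 windows (0.0304%) held it at 3 or more places. That count was made after the *Bcl6* window had been read. The outer *Bcl6* window held 1 STAT word, both overlapping windows of *Bcor* shared 1, and the inner *Ncor1* window held a BCL6 word 5 bases after the start. The *Prdm1* window and the outer *Ncor1* window held none of the letters searched, and the BLIMP-1 word was in none of the 7 windows. A match describes the letters and is not a measurement of binding.

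Depth, recovered from the FPKM steps, ranged from 17289286 to 18952077 fragments for controls and from 22583995 to 26100411 for CITED2-deficient BMDMs, which were sequenced 1.34 times as deeply on average. *Cited2* checked the genotypes and averaged 75.5 ± 3.79 FPKM in control libraries and, with 8.01 ± 1.10 (SD, n = 3 each), was far lower in CITED2-deficient libraries, which leaves 10.6% of the control level. FPKM (fragments per kilobase of transcript scaled to the mapped fragments of the library) were compared as log2(FPKM + 1) with limma, with Benjamini-Hochberg adjustment over all 11687 tested genes and a threshold of 0.05. Fold changes on that scale understate the change of low genes. Of all tested genes 51.3% passed, 16.7% higher and 34.6% lower in CITED2-deficient BMDMs. Over all tested genes the log2 fold change had a median of -0.10, and -0.014 after median-ratio scaling, in which a library is divided by the median of its gene-wise ratios to a geometric mean library. Under that scaling 44.5% of tested genes passed, and 22.5% were higher and 22.0% lower. The macrophage markers *Adgre1*, *Csf1r*, *Itgam*, *Cd68*, *Mertk*, *Fcgr1* and *Lyz2* were all tested and summed to an FPKM of 5319 to 5375 in control and 4951 to 5050 in CITED2-deficient BMDMs. Of these 7, *Fcgr1* was higher (mean FPKM 172 to 482) and 5 were lower past the threshold, with *Cd68* not past it. *Lyz2* fell from 31.3 to 9.75 and *Itgam* from 89.7 to 50.9. *Lyz2* is the locus that carries Cre in every mouse, and the part of the Cre allele in its values was not tested. The sums hide these falls, since *Adgre1*, *Cd68* and *Csf1r* had the highest values.

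In the comparison of genotypes, the repressor genes *Bcl6* and *Prdm1* were higher in CITED2-deficient BMDMs and the deacetylase gene *Hdac3* was lower. *Ncor1* and *Bcor* did not pass, and *Bcl6b* was near the limit of detection. The calls thus numbered 3 of the 5 tested genes, against 51.3% of all tested genes, so the share itself is near the background. After median-ratio scaling they numbered 4 of 5, with *Ncor1* added as higher, against 44.5% of all tested genes. Of the tested genes *Prdm1* had the largest change, a rise of 31.4% in mean FPKM, *Bcl6* rose by 11.3%, and *Hdac3* fell by 17.7%.

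**Figure D1:**
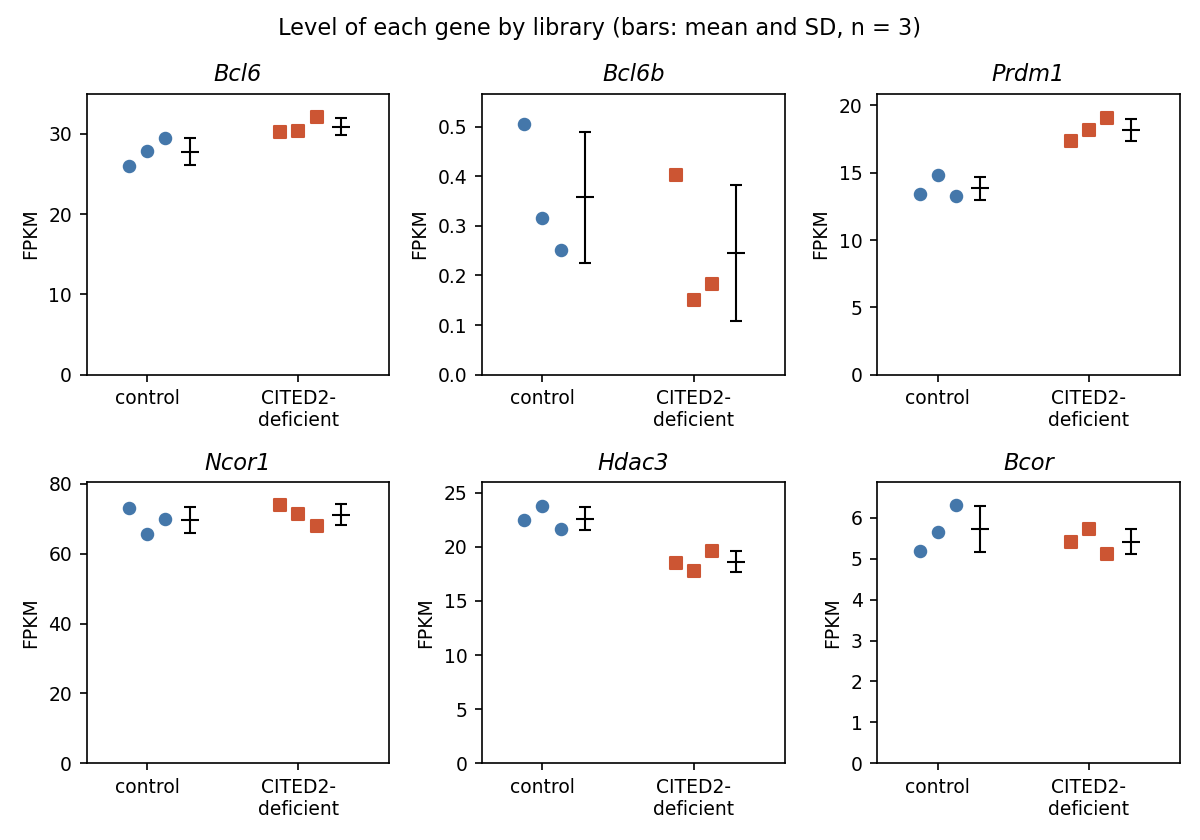
FPKM of the 6 genes (y axis, from 0) in the 3 control (circles) and 3 CITED2-deficient libraries (squares), with the mean and SD of each group beside them. The groups do not overlap for *Bcl6*, *Prdm1* and *Hdac3*, and they overlap for *Bcl6b*, *Ncor1* and *Bcor*.

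*Bcl6* (ENSMUSG00000022508, chromosome 16, 23965052 to 23988852, mm10) had an FPKM of 26.0, 27.9 and 29.5 in control replicates 1 to 3 and of 30.3, 30.4 and 32.1 in CITED2-deficient replicates 1 to 3. The highest control value stayed under the lowest CITED2-deficient value, although control replicate 3 and CITED2-deficient replicate 1 were close together. Such separation in either direction was found for 59.9% of all tested genes. Mean levels were 27.8 ± 1.73 and 30.9 ± 1.05 (SD, n = 3 each), with 1796 to 2084 fragments per control library and 2557 to 3128 per CITED2-deficient library. The log2 fold change was 0.15 (standard error 0.05, 95% interval 0.028 to 0.27, adjusted p = 0.0434 from limma). This call was narrow. It was lost when genes were not filtered (adjusted p = 0.0806 from limma), without the variance trend (adjusted p = 0.0745), and when any library other than control replicate 3 was left out (adjusted p from 0.0605 to 0.148). The direction was the same in all of these fits. After median-ratio scaling the log2 fold change was 0.24 (adjusted p = 0.00633 from limma). *Bcl6* RNA therefore had its higher values in the resting CITED2-deficient libraries, and no fit gave a lower level. These libraries hold no LPS-stimulated cells, so they give no measure of inducible *Bcl6*.

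*Prdm1* (ENSMUSG00000038151, chromosome 10, 44437177 to 44528501), the gene of BLIMP-1, had an FPKM of 13.4, 14.8 and 13.3 in the control replicates and of 17.4, 18.2 and 19.0 in the CITED2-deficient replicates. The groups were well apart, and the gap between them was larger than the range within either. The log2 fold change was 0.37 (standard error 0.06, 95% interval 0.23 to 0.51, adjusted p = 0.00101 from limma). The call held in every fit that was run, with log2 fold changes from 0.34 to 0.46 and adjusted p from 1.51e-05 to 0.00581 in limma. *Prdm1* lies on the same chromosome as *Cited2*, 26.7 Mb away, and a part of sequence linked to the floxed allele was not tested. The study names *Prdm1* among the repressive targets of BCL6. In these resting libraries the RNA of the repressor and of this target was higher, that of *Bcl6* by the narrow call above. The study also measured *Prdm1* by quantitative PCR in LPS-stimulated macrophages, which these libraries do not hold.

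*Bcl6b* (ENSMUSG00000000317, chromosome 11, 70224128 to 70229798) was barely detected. Controls 1 to 3 held 14, 8 and 7 of its fragments and CITED2-deficient replicates 15, 5 and 7, with an FPKM of 0.505, 0.315 and 0.252 against 0.402, 0.151 and 0.183. The replicates of a group differed by more than the groups did. The summed fragments, 29 and 27, gave a rate in CITED2-deficient over control BMDMs of 0.693, with an exact interval of 0.395 to 1.21 (95%, Clopper-Pearson, counting error only), so a difference was not detectable at this depth. When all listed genes were tested, its log2 fold change was -0.13 (adjusted p = 0.455 from limma).

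*Ncor1* (ENSMUSG00000018501, chromosome 11, 62316426 to 62458541) had the highest FPKM of the set. Its values were 73.1, 65.8 and 70.0 in the control replicates and 74.0, 71.4 and 68.0 in the CITED2-deficient replicates, and the groups overlapped almost fully. The log2 fold change was 0.03 (standard error 0.05, 95% interval -0.077 to 0.14, adjusted p = 0.609 from limma). It was -0.0081 without control replicate 2, and 0.13 after median-ratio scaling, where it passed (adjusted p = 0.0445 from limma). After quantile normalization the log2 fold change was 0.061 (adjusted p = 0.331 from limma), and *Ncor1* passed in no other fit that was run. A call for *Ncor1* thus rested on median-ratio scaling alone.

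*Hdac3* (ENSMUSG00000024454, chromosome 18, 37935844 to 37955016), the catalytic subunit of the NCOR complexes, had an FPKM of 22.4, 23.8 and 21.7 in the control replicates and of 18.5, 17.7 and 19.6 in the CITED2-deficient replicates. The ranges were apart, with the CITED2-deficient values below. The log2 fold change was -0.27 (standard error 0.06, 95% interval -0.40 to -0.14, adjusted p = 0.00377 from limma). It stayed past the threshold in every fit that was run, from -0.31 to -0.18. *Hdac3* was the gene of the set whose recovered fragments were not whole numbers (690.29, 668.76 and 668.02 in the controls), so its FPKM was not a plain count of fragments.

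*Bcor* (ENSMUSG00000040363, chromosome X, 12036740 to 12160355) had an FPKM of 5.20, 5.66 and 6.31 in the control replicates and of 5.42, 5.74 and 5.11 in the CITED2-deficient replicates. The CITED2-deficient values fell inside or just under the control range. The log2 fold change was -0.06 (standard error 0.09, 95% interval -0.27 to 0.14, adjusted p = 0.570 from limma), and its sign turned to 0.02 after median-ratio scaling and after quantile normalization. With this standard error, the interval still allows a change of either sign.

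**Figure D2:**
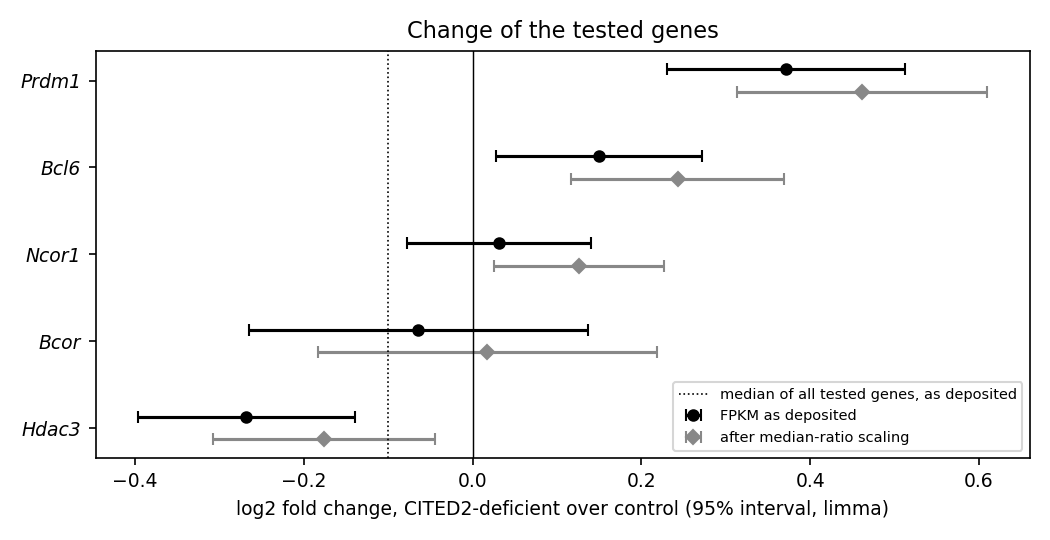
Log2 fold change of the 5 tested genes in CITED2-deficient over control BMDMs (x axis) with 95% intervals from limma, for FPKM as deposited (black circles) and after median-ratio scaling (grey diamonds). The dotted line is the median of all tested genes, -0.10. *Prdm1* and *Bcl6* lie above 0 and *Hdac3* below 0 under both scalings, *Ncor1* at 0.03 and 0.13, and *Bcor* changes sign.

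The order of levels in control BMDMs, per length, was *Ncor1* (69.6 ± 3.67 FPKM), *Bcl6* (27.8 ± 1.73), *Hdac3* (22.6 ± 1.07), *Prdm1* (13.8 ± 0.879), *Bcor* (5.72 ± 0.556) and *Bcl6b* (0.357 ± 0.132; SD, n = 3 each). No neighbors in this order overlapped. In CITED2-deficient BMDMs *Hdac3* (18.6 ± 0.962) and *Prdm1* (18.2 ± 0.837) had overlapping values. Among all tested genes *Ncor1* stood at the 85.6th percentile of mean FPKM, *Bcl6* at the 67.1st, *Hdac3* at the 58.4th, *Prdm1* at the 51.6th and *Bcor* at the 27.4th.

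The order between genes depended on the length by which fragments were divided. The FPKM steps fit the mean length of all annotated transcripts of a gene, which is 2513 bases over the 25 transcripts of *Ncor1*, while its longest transcript has 9037 bases. For *Bcl6*, with 2 transcripts, the mean is 3729 bases and the longest is 3933. Per kilobase of the longest transcript, a choice made after the data were seen, control levels were 26.4 ± 1.64 for *Bcl6* and 19.4 ± 1.02 for *Ncor1* (SD, n = 3 each), so *Bcl6* came before *Ncor1*. *Hdac3* was then at 10.3 ± 0.484 and *Prdm1* at 8.29 ± 0.527 in control BMDMs, against 8.45 ± 0.437 and 10.9 ± 0.501 in CITED2-deficient BMDMs, where *Prdm1* came before *Hdac3*. Ratios of mean FPKM between genotypes do not depend on this choice, since each gene keeps 1 length. Fold changes of log2(FPKM + 1) depend on it through the added 1 and the filter, and were not refitted.

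**Figure D3:**
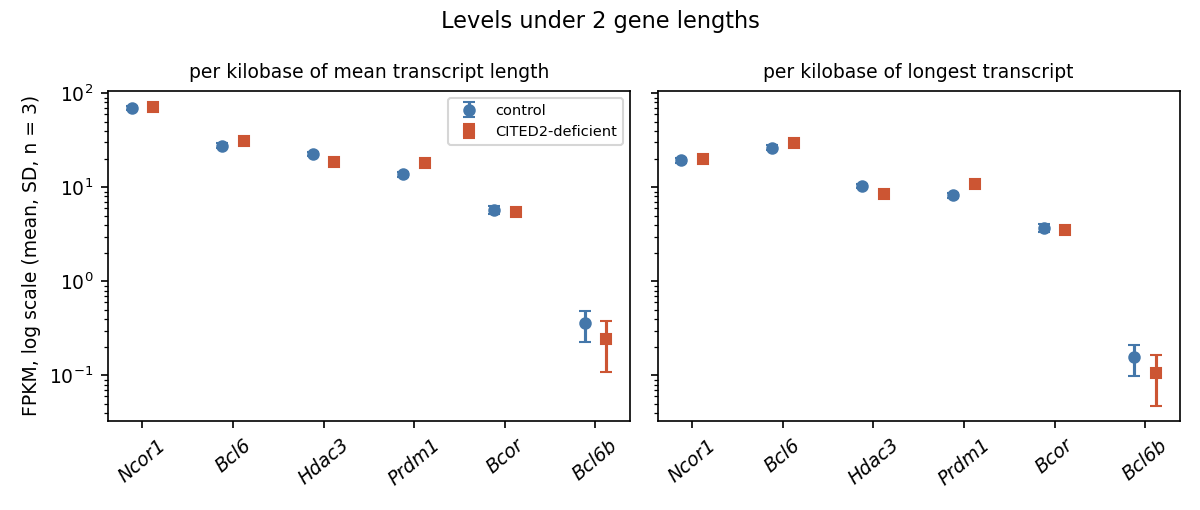
Mean and SD of FPKM (y axis, log scale, n = 3) of the 6 genes in control (circles) and CITED2-deficient libraries (squares), per kilobase of the mean transcript length, as deposited (left), and of the longest transcript (right). *Ncor1* is the highest on the left at 69.6 in controls, and *Bcl6* is the highest on the right at 26.4.

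The balance between the genes was read as ratios within a library, which do not depend on the scaling between libraries. *Prdm1* was at 0.515, 0.533 and 0.450 of *Bcl6* in the control replicates and at 0.573, 0.598 and 0.592 in the CITED2-deficient replicates, so every CITED2-deficient library held more *Prdm1* per *Bcl6*. The log2 ratio was higher by 0.24 in CITED2-deficient BMDMs. *Bcl6* over *Hdac3* was 1.16, 1.17 and 1.36 in the control replicates against 1.64, 1.71 and 1.64 in the CITED2-deficient replicates, a difference of 0.44 on the log2 scale and the largest of the 4 ratios compared. *Bcl6* over *Bcor* was 4.67 to 5.01 against 5.29 to 6.29, again without overlap, with a difference of 0.23. *Bcl6* over *Ncor1* overlapped between the groups, at 0.356 to 0.423 against 0.409 to 0.472, with a difference of 0.12 that came to 0.041 without control replicate 1 and 0.063 without CITED2-deficient replicate 3. The two-sided exact permutation p was 0.1 for each of the 3 ratios that did not overlap, which is the smallest that 3 against 3 libraries allow, and 0.4 for *Bcl6* over *Ncor1*. After Benjamini-Hochberg adjustment over the 4 ratios the exact permutation p was 0.133 for those 3 and 0.4 for the other.

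**Figure D4:**
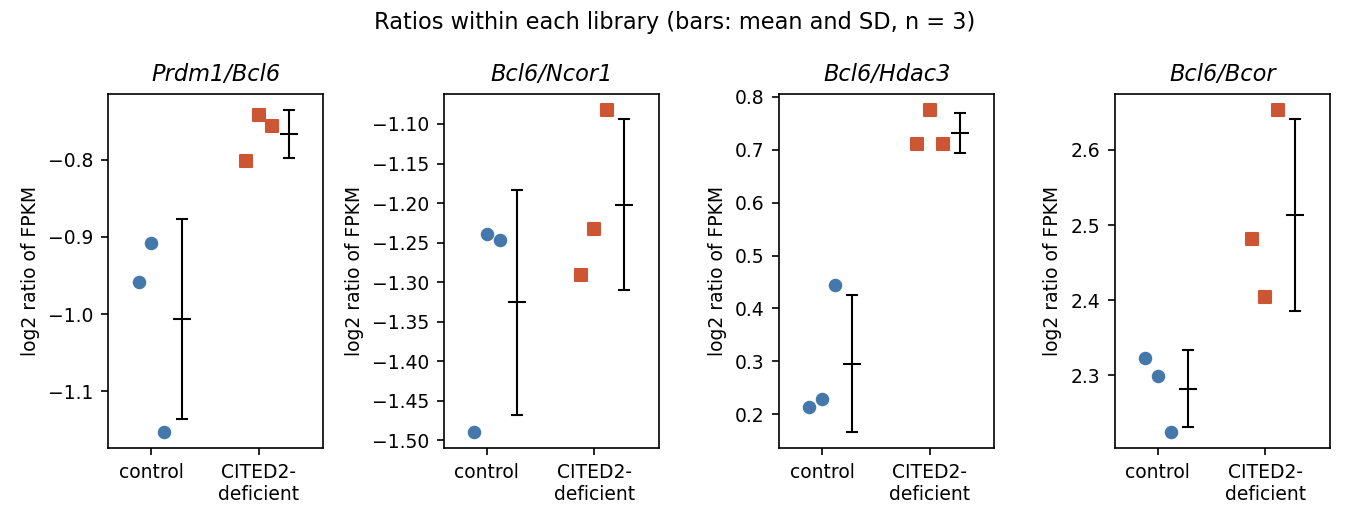
Log2 ratio of FPKM within each library (y axis, a separate range in each panel) for the 4 gene pairs, in control (circles) and CITED2-deficient libraries (squares), with mean and SD (n = 3). The CITED2-deficient libraries lie above all controls for *Prdm1*/*Bcl6*, *Bcl6*/*Hdac3* and *Bcl6*/*Bcor*, and overlap them for *Bcl6*/*Ncor1*.

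Among the genes of the NCOR-HDAC3 complex, an exchange factor was higher while the catalytic subunit was lower. Of 6 genes tested (*Ncor1*, *Hdac3*, *Tbl1x*, *Tbl1xr1*, *Gps2* and *Cops2*), 1 was higher and 1 lower past the threshold, with a median log2 fold change of 0.0024, against 16.7% higher and 34.6% lower among all tested genes, so the complex had no excess of calls. *Tbl1xr1*, which encodes a WD40 protein that helps to exchange corepressors for coactivators, rose from 39.6 ± 1.25 to 48.2 ± 1.13 FPKM (SD, n = 3 each), by 0.28 on the log2 scale (adjusted p = 0.000415 from limma). *Tbl1x* (0.12), *Gps2* (-0.03) and *Cops2* (-0.04) did not pass. After median-ratio scaling, under which 22.5% of all tested genes were higher, *Tbl1x* and *Ncor1* also passed as higher.

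In the BCOR complex 6 genes of 12 tested were lower past the threshold and 1 was higher, with a median log2 fold change of -0.19. Among all tested genes 34.6% were lower and 16.7% higher, with a median of -0.10, so falls outnumbered rises there too. *Cbx8*, a chromobox subunit, had a mean FPKM of 4.31 ± 0.485 in control and 1.99 ± 0.257 in CITED2-deficient BMDMs (-0.83 on the log2 scale, adjusted p = 0.000315 from limma). *Yaf2*, a relative of *Rybp*, fell by 0.65 and *Rnf2* (RING1B, the ubiquitin ligase) fell by 0.43 on the log2 scale. *Pcgf1*, the subunit that defines this variant complex, fell by 0.39, *Kdm2b*, which brings it to CpG islands, fell by 0.24, and *Skp1a* fell by 0.19. After median-ratio scaling 4 were lower, since *Kdm2b* (-0.14) and *Skp1a* (-0.09) did not pass, and 2 were higher. Under that scaling 22.0% of all tested genes were lower and 22.5% higher. *Mllt3* (AF9, which BCOR binds) rose by 0.36, a call that was lost without a filter and in 4 of the 6 fits that left out a library. *Bcor*, *Bcorl1*, *Ring1*, *Rybp* and *Usp7* did not pass, although *Usp7* did after median-ratio scaling (0.15).

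Of the SIN3 complex, which is another deacetylase partner of BCL6, 9 of 11 genes were lower and 1 was higher, with a median log2 fold change of -0.24, beside 34.6% lower and 16.7% higher of all tested genes. *Hdac1* fell from 65.6 ± 2.88 to 51.6 ± 0.881 FPKM (log2 fold change -0.34, adjusted p = 0.000129 from limma), *Ing1* fell by 0.29, and *Rbbp7* fell by 0.28. *Sap30*, which helps to hold the complex together, went the other way, from 24.8 ± 0.817 to 35.7 ± 2.25 (0.51, adjusted p = 6e-05 from limma). After median-ratio scaling 6 were lower and 2 higher, beside 22.0% and 22.5% of all tested genes. The NuRD and CtBP genes gave 2 higher (*Gatad2a* 0.38, *Mbd2* 0.35) and 2 lower (*Chd3* -0.18, *Mta2* -0.14) of 11, with *Mta3*, the NuRD subunit that BCL6 is known to bind in B cells, at 0.01. Both falls were lost after median-ratio scaling. NuRD shares *Hdac1*, *Hdac2*, *Rbbp4* and *Rbbp7* with SIN3. These were lower and were counted under SIN3 and not under NuRD, so the counts of these lists depend on that placement. Of the class IIa deacetylases *Hdac4*, *Hdac5*, *Hdac7* and *Hdac9*, 1 passed, as *Hdac5* fell from 89.2 ± 3.53 to 77.0 ± 2.63 (log2 fold change -0.21, adjusted p = 0.00251 from limma).

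**Figure D5:**
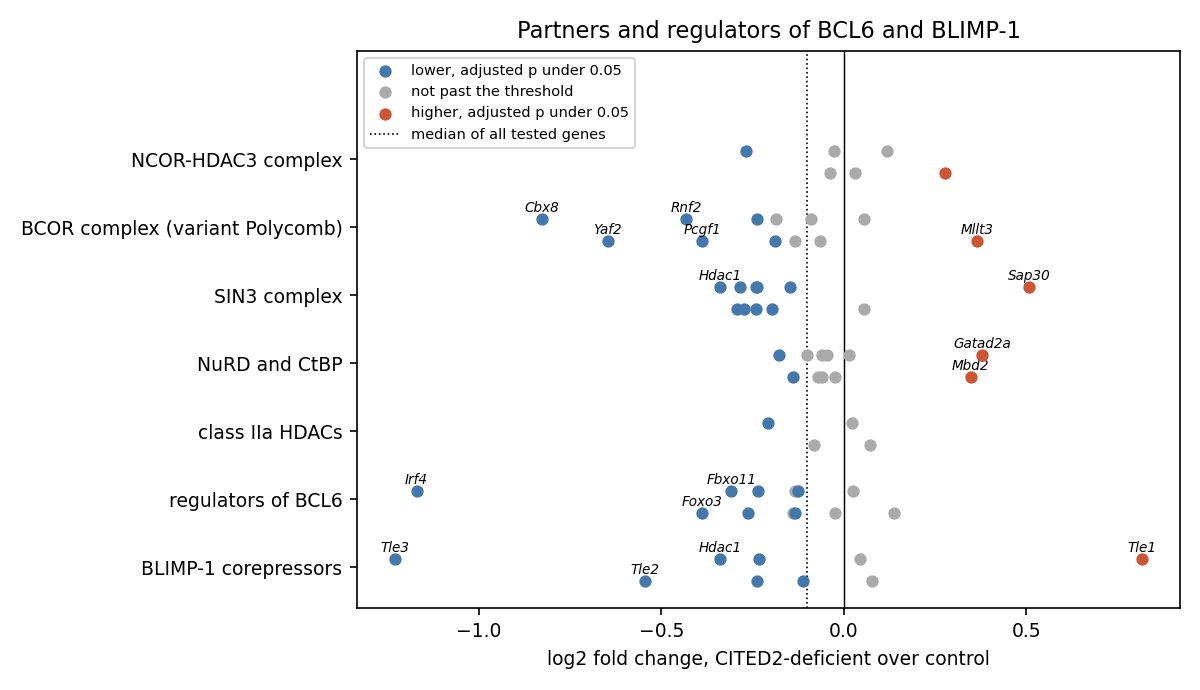
Log2 fold change in CITED2-deficient over control BMDMs (x axis) of each tested gene in 7 lists of partners and regulators (rows), colored by the limma call, with genes beyond 0.3 in either direction named. The SIN3 row lies below 0 apart from *Sap30* and *Suds3*, and *Irf4* and *Tle3* are the lowest points, at -1.17 and -1.23.

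Among 12 genes known to act on *Bcl6* or its protein, 7 were lower and none was higher past the threshold in limma, with a median log2 fold change of -0.14, beside 34.6% lower and 16.7% higher of all tested genes. No gene of this list was higher at an unadjusted p under 0.05 (0 of 12) or by limma-voom (0 of 12), where 8 were lower. *Irf4*, an interferon regulatory factor that acts on both *Bcl6* and *Prdm1* in B cells, had the largest fall, with an FPKM of 6.01, 6.18 and 5.62 in the controls against 1.91, 2.39 and 1.95 (log2 fold change -1.17, adjusted p = 1.3e-05 in limma). *Foxo3* fell by 0.39, *Fbxo11*, the ubiquitin ligase adaptor that marks BCL6 protein for breakdown, fell by 0.31, and *Foxo4* fell by 0.26. *Mapk3*, one of the kinases that trigger BCL6 turnover, fell by 0.23. After median-ratio scaling, under which 22.0% of all tested genes were lower, 5 of the 7 falls were kept, namely *Irf4*, *Foxo3*, *Fbxo11*, *Foxo4* and *Mapk3*. The falls of *Stat3* and *Stat5b* (-0.13 each) were lost, that of *Stat5b* also in every fit that left out a library, and *Stat5a* did not pass in either. RNA gives no measure of STAT phosphorylation or of BCL6 protein.

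The corepressors of BLIMP-1 split by gene. Of 9 genes tested, 6 were lower and 1 higher (all tested genes: 34.6% and 16.7%), with a median log2 fold change of -0.23. The lower genes include *Hdac1* and *Hdac2*, which were also counted under SIN3. *Tle3*, a Groucho-family corepressor, had an FPKM of 41.9, 40.6 and 40.8 in the controls and 16.6, 16.7 and 17.5 in the CITED2-deficient replicates (log2 fold change -1.23, adjusted p = 3.66e-08 in limma). *Tle1*, of the same family, rose from 8.58, 9.68 and 10.1 to 17.6, 16.3 and 18.3 (0.82, adjusted p = 1.92e-05 from limma). *Tle2* fell by 0.54 and *Tle4* (0.08) did not pass, although it did after median-ratio scaling (0.17).

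Of 8 genes that BLIMP-1 is known to repress, 5 were tested, of which 3 were higher, *Bcl6* itself among them, and 1 was lower, where 16.7% of all tested genes were higher and 34.6% lower. *Ciita*, the master regulator of MHC class II, went from 8.73 ± 1.12 FPKM to 5.15 ± 0.449 (SD, n = 3 each, log2 fold change -0.66, adjusted p = 0.000592 from limma), opposite to *Prdm1*. *Ccl8*, a chemokine, rose by 2.79 on the log2 scale and *Id3*, an inhibitor of E proteins, rose by 0.60, while *Myc* (-0.13) did not pass. The study also names *Ccl8* among the repressive targets of BCL6, which it chose on these libraries. *Bach2*, below the filter, had 24, 21 and 25 fragments in the controls and 96, 95 and 95 in the CITED2-deficient replicates. The direction of these genes was thus not shared.

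Of genes known as BCL6 targets from B cell work, 8 of 15 tested were higher, *Prdm1* and *Ccnd2* among them, and 3 were lower. Among all tested genes 16.7% were higher and 34.6% lower, and the list had a median log2 fold change of 0.21. Like the other lists, it was chosen with earlier results of these data known, so the counts are not independent of the data. The largest rises were *Cxcl10*, a chemokine induced by interferon (3.20), *Ccnd2*, a G1 cyclin (1.65), and *Cd69*, an early activation marker (1.37). *Gpr183*, an oxysterol receptor, fell by 1.61, *Cd80*, a costimulatory ligand, fell by 0.63, and *Cdkn1b*, a cell cycle inhibitor, fell by 0.55. *Chek1* was below the filter. Several of the genes that rose also respond to interferon. Of 24 repressive targets that the study names, *Prdm1*, *Ccnd2* and *Ccl8* included, all 21 tested were higher, with 3 below the filter. The study chose these on the same libraries, so their direction is not independent evidence.

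The genes whose values followed the set most closely over the 6 libraries, by Pearson correlation of log2(FPKM + 1), were *Ppp1r2* for *Bcl6* (r = 0.997), *Jade2* for *Prdm1* (0.999), *Ubqln2* for *Hdac3* (0.998), *Gne* for *Bcor* (0.995) and *Pgam5* for *Ncor1* (0.976). These 6 points share their libraries and genotypes, and such values are a description.

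Lymphoid cells express *Bcl6* and *Prdm1* strongly, so markers of other cells were read beside them. For comparison, 16.7% of all tested genes were higher and 34.6% lower past the threshold. The B cell list (*Cd79a*, *Cd79b*, *Ms4a1*, *Pax5*, *Ebf1*) summed to an FPKM of 2.59 to 3.69 in control and 3.47 to 4.14 in CITED2-deficient BMDMs, and 1 of its 2 tested genes passed, *Ebf1*, as higher (0.77). *Cd79a*, *Ms4a1* and *Pax5* were below the filter. Of the T cell list *Cd3d*, *Cd3e*, *Cd3g* and *Cd8a* were below the filter, and *Cd4* fell by 0.54, with sums of 6.60 to 7.66 against 4.16 to 5.77. Of the plasma cell list *Sdc1* rose by 0.72, *Jchain* (0.24) did not pass and *Mzb1* was below the filter, with sums of 51.6 to 61.4 against 85.9 to 92.7. The fibroblast list rose in all 6 of its tested genes of 8 and summed to 42.4 to 50.6 in control against 170 to 540 in CITED2-deficient libraries. The endothelial list summed to 5.85 to 6.22 against 27.1 to 32.5, most of it *Kdr*, with *Cdh5* also higher, *Pecam1* not past the threshold and *Tek* and *Tie1* under an FPKM of 1. In the neutrophil list *Elane* (mean FPKM 12.4 to 2.15), *Mpo* (16.2 to 1.95), *Ngp* (149 to 119) and *Camp* (47.0 to 23.1) fell. *Ltf* rose (94.3 to 177) and *Ly6g* was below the filter. The sums, 297 to 333 against 304 to 334, are led by *Ngp* and *Ltf*, which moved in opposite directions. In bulk RNA, fewer cells of a type and less RNA per cell cannot be told apart, and the part of these cells in the values of *Bcl6* and *Prdm1* was not tested. Without CITED2-deficient replicate 1, which had the highest fibroblast sum, the log2 fold changes were 0.16 for *Bcl6*, 0.40 for *Prdm1* and -0.26 for *Hdac3*. Past the threshold were then 2 of the 5 tested genes, beside 5475 of all 11687 tested genes. The lowest fibroblast sum of a CITED2-deficient library, 170, was above the highest of a control, 50.6. This fit therefore leaves the difference in fibroblast markers in place.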

How the data were processed

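RNA of 6 BMDM libraries was measured by stranded, rRNA-depleted RNAseq. STAR alignment to mm10 and Cuffdiff with GENCODE genes gave the FPKM per gene and library that the authors deposited. The sources used here name no tool version and no GENCODE release. Groups were taken from the sample titles, and columns were matched to titles by genotype and replicate number.

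FPKM were compared as log2(FPKM + 1) with limma 3.58.1 (R 4.3.3, variance trend) for the 11687 genes averaging an FPKM of 1 or more, 3 against 3 libraries, with Benjamini-Hochberg adjustment. Fragments were recovered with the mean GENCODE vM21 transcript length, rounded down, for 22239 matched genes. Of these, 96.1% gave values no farther than 0.02 from whole in each of the 6 libraries. A chi-square per gene of 2.21 to 5.50 between replicates exceeded sampling noise, so none was a duplicate. Ratios were tested by exact permutation. The fit was tested on simulated data. The genes and lists were chosen with earlier results of these data known. Named genes were the set, list members (by default the 3 with the strongest rise or fall among those that passed), the gene most correlated with each, and *Cited2*. No promoter window was held for *Bcl6b*, and the sequence of *Hdac3* and 4 genes of the lists are not reported here. The Cuffdiff test was not repeated. Alternatives were other pseudocounts (0.1, 0.5), filters, scalings, variance models, limma-voom on fragments, a replicate block and each library left out.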

Additional observations from a re-analysis of the deposited data

How the results depend on the processing

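The number of tested genes of the set past the threshold was 3 as reported, and 2 to 3 when each library was left out, and 4 after median-ratio scaling. Of all 11687 tested genes 5994 passed as reported, 5211 to 5475 when each library was left out, and 5200 after median-ratio scaling. *Prdm1* (0.34 to 0.42 over the libraries left out) and *Hdac3* (-0.31 to -0.23) kept direction and threshold under every alternative. The rise of *Bcl6* kept its direction (0.11 to 0.19 over the libraries left out) and missed the threshold at 0.15 without a filter and at 0.15 without the variance trend. In these 2 fits the estimate is the same and the adjusted p is higher, with more genes tested in the former. Its call was also lost without control replicate 1 or 2 or any CITED2-deficient library. These fits have fewer samples, and the estimates differ too. The estimate was 0.11 without control replicate 1, 0.12 without CITED2-deficient replicate 3, and 0.15 to 0.16 in the others. The equally small fit without control replicate 3 kept the call at 0.19 (adjusted p = 0.0232 from limma). *Ncor1* passed at 0.13 after median-ratio scaling and ran from -0.0081 to 0.067 over the libraries left out, with the lowest value without control replicate 2. *Bcor* turned to 0.017 after median-ratio scaling and to 0.020 after quantile normalization, and ran from -0.12 to -0.0025 over the libraries left out. Dividing by median ratios moves the typical gene up by construction. The untested difference of *Bcl6b* was -0.44 with a pseudocount of 0.1, where low values weigh more. The 4 ratios kept their direction under every alternative.

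Deviations from the group mean correlated at 0.0078 to 0.040 in same-numbered libraries and at -0.052 to 0.035 in the other pairs. Values this close to 0 do not decide whether the replicate numbers pair the libraries. With a replicate block 5708 genes passed in place of 5994, *Bcl6* had an adjusted p of 0.0341 in limma, and no call in the set changed. *Bcl6b*, with 5 to 15 fragments per library, is limited by depth.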
